A study of Danio rerio with 9 samples.

Results

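The genes described here are 8 transcription factors linked to lymphatic and venous fate, in part from work in mouse. They are *prox1a*, *nr2f2*, *sox18*, *sox7*, *hhex*, *gata2a*, *foxc1a* and *foxc1b*. They were chosen by gene symbol, with earlier results of these data known. All 8 had a row of their own among the 16575 genes of the count table. The name table lists *prox1a* as PROX1 (ENSDARG00000055158), *gata2a* as GATA2 (ENSDARG00000059327) and *foxc1a* as FOXC1 (ENSDARG00000091481), and no other row of the table carries these symbols. The remaining identifiers are ENSDARG00000040926 for *nr2f2*, ENSDARG00000058598 for *sox18*, ENSDARG00000030125 for *sox7*, ENSDARG00000098231 for *hhex* and ENSDARG00000055398 for *foxc1b*. Poly(A) RNA was sequenced from fresh, uninjured cardiac ventricles of adult zebrafish at 5 months of age. Mutant libraries (replicates 6 to 9, n = 4) came from vegfc(hy-/-);vegfd(-/-) fish, which carry a hypomorphic *vegfc* allele and a mutated *vegfd* in the whole animal, and control libraries (replicates 1 to 5, n = 5) from fish wild type at both genes. The study used these viable mutants to examine hearts without a ventricular lymphatic network. It also reported larger ventricles and larger cardiomyocytes in uninjured mutants, and their part in the levels given here was not tested. Both alleles are germline changes, so no effect can be assigned to 1 cell type. The labels do not say whether a library is 1 fish, so p-values measure the spread between libraries only.

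Lymphatic endothelial cells arise largely from veins. In mouse embryos, SOX18 and the venous nuclear receptor COUP-TFII, the product of *Nr2f2*, switch on *Prox1* in a subset of venous cells, and PROX1 then sets and maintains lymphatic identity. VEGFC and VEGFD signal through the receptor VEGFR3, the product of *flt4*, to drive the sprouting of these cells. None of these factors is limited to lymphatic vessels, and in bulk tissue fewer cells of a type and less RNA per cell cannot be told apart. Whether the order of factors seen in mouse embryos holds in zebrafish was not tested here.

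Libraries held between 23302636 and 33496006 counts, with overlapping ranges in both genotypes. Control replicate 2 was the shallowest and had 684 genes without a count, against 69 to 320 in the other 8 libraries, so values of the 8 genes that move with it are also given without it. The ventricular label was met by *myh7* and *myl7*, which encode the main ventricular myosin heavy chain and a cardiac myosin light chain, at means of 48468 and 25207 CPM in controls. CPM is the count of a gene as a rate of the library total after TMM scaling, edgeR's correction for differences in library composition, and since it is not corrected for gene length, levels are compared between libraries only. Of the mutated genes, *vegfd* fell in mutants, by 2.82 ± 0.51 (SE) on the log2 scale with an adjusted p-value of 0.0195 in edgeR, a call lost without mutant replicate 6 or 7. *vegfc* differed by 0.35 ± 0.46 (SE) on that scale (adjusted p-value 0.719 in edgeR), and a hypomorphic allele need not lower its mRNA.

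Expression of *foxc1a* fell in mutant ventricles, to 0.439 times the control level. It was the 1 gene of these 8 past the threshold of 0.05 on the adjusted p-value by edgeR's quasi-likelihood test over all genes, which called 1.21% of all genes lower in mutants and 3.34% in either direction. No member was called higher, where the test called 2.13% of all genes higher. Members higher in mutants also numbered 0 at an unadjusted p-value under 0.05 in edgeR, where 11% of all genes were higher, by the likelihood ratio test and by DESeq2. An unadjusted p-value under 0.05 with a lower level in mutants was found for 5 members, *foxc1a*, *nr2f2*, *sox18*, *gata2a* and *sox7*, against 9.87% of all genes. The highest mutant library was below the lowest control for *foxc1a* and *nr2f2*, as for 4.46% of all genes, and no member showed the opposite order, found for 6.07%. Fitted changes were negative for 7 members and positive for 1, with a median log2 fold change of -0.81 against -0.01 over all genes. Because the genes were chosen with earlier results of these data known, these counts and medians are a description only.

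**Figure D1:**
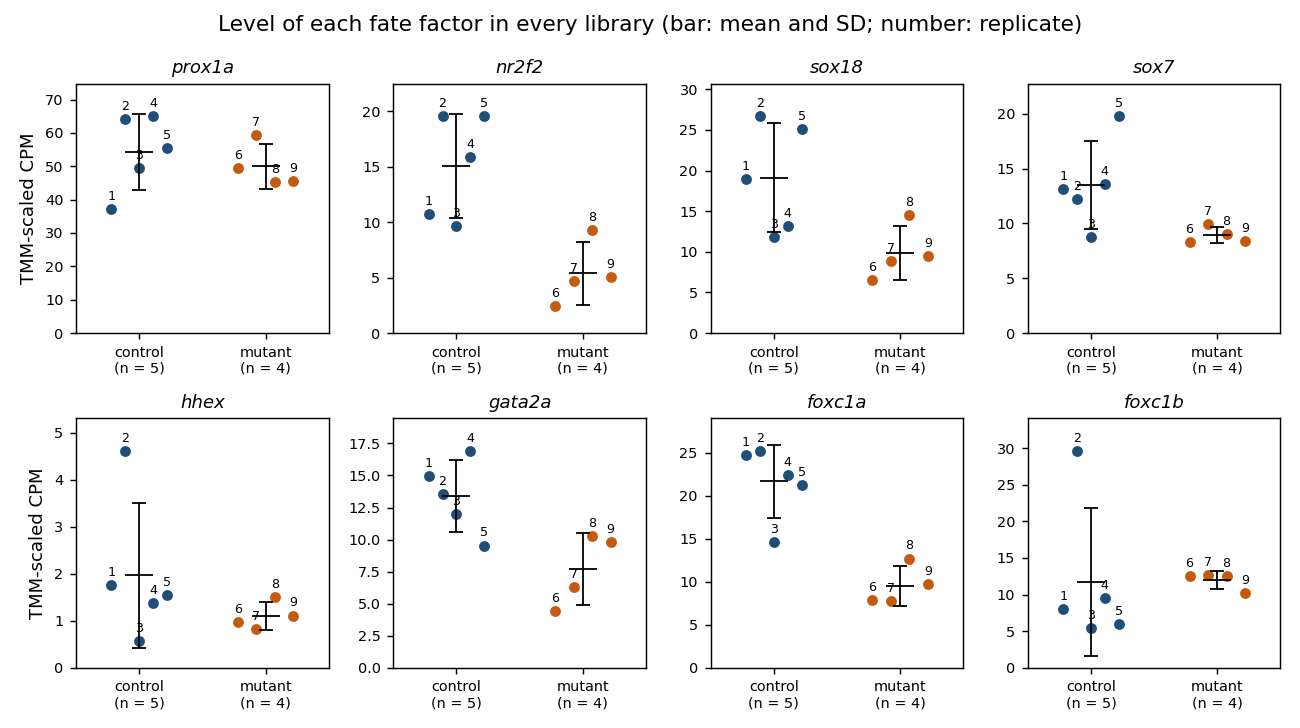
Level of the 8 fate factors in each library, as TMM-scaled CPM on a linear axis from 0, with 5 control libraries in blue and 4 mutant libraries in orange. Numbers are replicates, and the black bar gives the mean and SD. The mutant and control points of *foxc1a* and *nr2f2* do not overlap, those of *prox1a* do, and control replicate 2 lies far above the other controls for *foxc1b* (29.6 CPM).

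The first group of factors holds *nr2f2* and *sox18*, whose mouse counterparts act upstream of *Prox1*, and *sox7*. *nr2f2* encodes the orphan nuclear receptor that maintains venous identity in mouse. Its expression was 10.8, 19.5, 9.62, 15.9 and 19.5 CPM in control libraries 1 to 5 and 2.45, 4.71, 9.29 and 5.06 CPM in mutant libraries 6 to 9. All mutant libraries were below the lowest control, although mutant replicate 8, at 9.29 CPM, came close to control replicate 3, at 9.62 CPM. Means with SD were 15.1 ± 4.71 CPM over 5 controls and 5.38 ± 2.85 CPM over 4 mutants. The log2 fold change of -1.49 ± 0.37 (SE) was the most negative of the 8, but its edgeR adjusted p-value of 0.0567 missed the threshold. The call depended on the analysis: *nr2f2* passed by the likelihood ratio test (adjusted p-value 0.00445), by DESeq2 (0.00173), in the newer form of edgeR's quasi-likelihood fit (0.0397) and with scaling by library size alone (0.0461). It also passed without mutant replicate 8 (edgeR adjusted p-value 0.0330). Across all 18 other fits the adjusted p-value ranged from 0.00173 to 0.139.

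*sox18* and *sox7* encode SoxF factors, which share roles in arterial and venous identity in zebrafish embryos, and mouse SOX18 binds and activates *Prox1*. Expression of *sox18* was 18.9, 26.7, 11.8, 13.2 and 25.1 CPM in control libraries 1 to 5 and 6.58, 8.83, 14.6 and 9.54 CPM in mutant libraries 6 to 9. Only mutant replicate 8 overlapped with controls, above replicates 3 and 4. The log2 fold change of -0.95 ± 0.30 (SE) had a 95% interval from -1.62 to -0.29 and did not pass over all genes (edgeR adjusted p-value 0.111). Of its 18 other fits, *sox18* passed by the likelihood ratio test (adjusted p-value 0.0450) and by DESeq2 (0.0287).

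For *sox7* the controls ranged from 8.77 to 19.8 CPM and the mutants from 8.33 to 9.93 CPM. The mutant libraries lay close together, with a coefficient of variation of 8.32% against 29.5% in controls, and the overlap was with control replicate 3. Over all genes with a mean of at least 1 CPM, the median coefficient of variation was 20.2% in mutants and 24.1% in controls. The log2 fold change of *sox7* was -0.60 ± 0.21 (SE, edgeR adjusted p-value 0.147), and it passed in none of the 18 other fits.

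**Figure D2:**
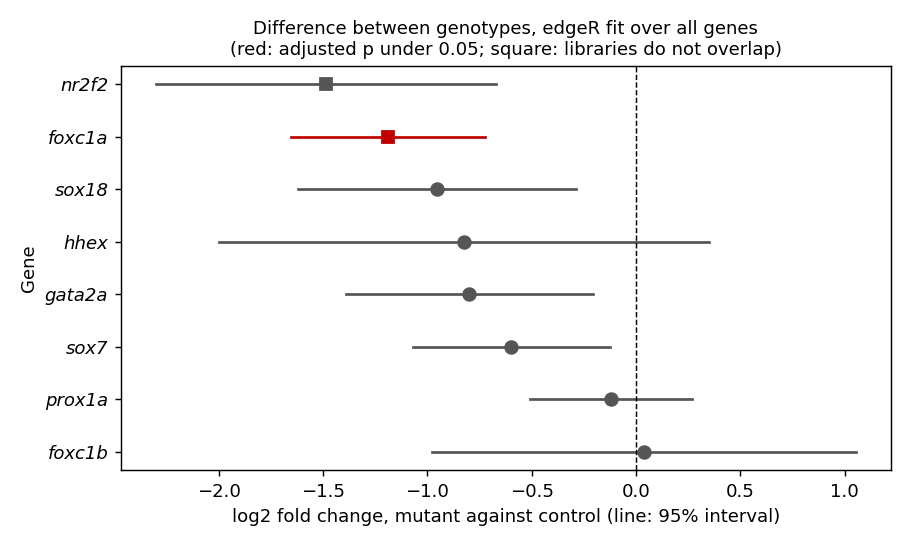
Fitted log2 fold change of each factor, mutant against control, from the edgeR fit over all genes, with its 95% interval as a line and 0 as a dashed line. Red marks an adjusted p-value under 0.05 and squares mark genes whose mutant and control libraries do not overlap. Only *foxc1a* is red, and the interval of *prox1a* runs from -0.51 to 0.27.

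*prox1a*, whose homeodomain product is the defining factor of lymphatic endothelial cells, did not pass, and its difference from *nr2f2*, *sox18* or *foxc1a* in size of change was not tested. Its expression was 37.3, 64.1, 49.4, 65.0 and 55.4 CPM in control libraries 1 to 5 and 49.5, 59.5, 45.3 and 45.6 CPM in mutant libraries 6 to 9. Every mutant library lay inside the range of the controls. Means with SD were 54.2 ± 11.5 CPM over 5 controls and 49.97 ± 6.64 CPM over 4 mutants, from 1206 to 2068 counts per library. Fitted by edgeR, the change was -0.12 ± 0.18 (SE) on the log2 scale with an adjusted p-value of 0.757. Its 95% interval, from -0.51 to 0.27, reaches down to 0.704 times the control level. *Prox1* is also transcribed in cardiomyocytes and hepatocytes of mouse. The summed level of 7 cardiomyocyte rows was 108730 to 125268 CPM in controls and 89724 to 99705 CPM in mutants, without overlap and with none of the rows called by edgeR (4 lower and 1 higher at an unadjusted p-value under 0.05) or the likelihood ratio test, and 2 lower and 1 higher by DESeq2. Their part in the level of *prox1a* was not tested.

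Next in the list are *hhex* and *gata2a*. *hhex* encodes a homeodomain factor that acts on *Flt4* and *Prox1* in zebrafish and mouse, and human GATA2 mutations can cause lymphoedema. *hhex* was at the lowest depth of the 8 genes, with 20 to 101 counts in controls and 26 to 42 in mutants. Its control libraries ran from 0.566 CPM in replicate 3 to 4.62 CPM in replicate 2 and enclosed all mutant libraries, which held 0.817 to 1.51 CPM. The log2 fold change of -0.82 ± 0.53 (SE, edgeR adjusted p-value 0.409) was -0.25 without control replicate 2. Of the 8 liver genes looked for as another source of *hhex*, 3 had rows, with summed levels of 11.3 to 26.6 CPM in controls and 9.27 to 26.2 CPM in mutants and 0 rows called by edgeR, at an unadjusted p-value under 0.05, by the likelihood ratio test or by DESeq2.

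Expression of *gata2a* was 14.99, 13.6, 11.996, 16.9 and 9.54 CPM in control libraries 1 to 5 and 4.41, 6.31, 10.3 and 9.83 CPM in mutant libraries 6 to 9. Mutant replicates 8 and 9 overlapped with control replicate 5, and mutant replicates 6 and 7 lay below all controls. Its fitted log2 fold change was -0.80 ± 0.27 (SE), with a 95% interval from -1.39 to -0.21 and an edgeR adjusted p-value of 0.128. *gata2a* passed in none of the 18 other fits, where its lowest adjusted p-value was 0.0508. In the RefSeq annotation of the GRCz12tu assembly, *gata2a* lies on the chromosome of *vegfd*, and none of the 8 genes lies on that of *vegfc*.

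The forkhead genes *foxc1a* and *foxc1b* are duplicates of the ancestral *foxc1* gene, and mouse *Foxc1* and *Foxc2* act in lymphatic sprouting and valves as well as in mesenchyme. Expression of *foxc1a* was 24.8, 25.2, 14.6, 22.5 and 21.3 CPM in control libraries 1 to 5 and 7.84, 7.76, 12.7 and 9.73 CPM in mutant libraries 6 to 9. The gap between the genotypes lay between control replicate 3 and mutant replicate 8, and the other 7 libraries were farther apart. Means with SD were 21.7 ± 4.28 CPM over 5 controls and 9.51 ± 2.32 CPM over 4 mutants. On the log2 scale the change was -1.19 ± 0.21 (SE), with a 95% interval from -1.65 to -0.72 and an adjusted p-value of 0.0192 in edgeR. The call held under all 9 other tests, scalings and filters (adjusted p-values 1.56e-05 to 0.0268) but was lost without mutant replicate 6 (edgeR adjusted p-value 0.0555), 7 (0.0576) or 9 (0.0523).

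*foxc1b* showed no such fall. Its mutant libraries held 12.6, 12.6, 12.5 and 10.2 CPM, within a narrow band. Control libraries 1, 3, 4 and 5 held 8.07, 5.40, 9.56 and 5.98 CPM and control replicate 2 held 29.6 CPM. Thus 4 of 5 controls lay below every mutant library and 1 lay above. For *foxc1b* the fitted log2 fold change was 0.04 ± 0.46 (SE, edgeR adjusted p-value 0.975) and 0.72 ± 0.20 (SE, edgeR adjusted p-value 0.0899) without control replicate 2. The share of *foxc1a* in the summed CPM of both genes, which also depends on their lengths and is compared between libraries only, was 46.0% to 78.1% in controls, the lowest share being that of control replicate 2, and 38.1% to 50.4% in mutants. Whether the change of *foxc1a* differs from that of *foxc1b* was not tested.

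Cells of the epicardium and fibroblasts also transcribe *Foxc1* in mouse, so their markers were set beside these values. The 10 rows summed to 302.0 to 544.6 CPM in controls and 316.8 to 427.7 CPM in mutants, and 1 of them was called lower, the epicardial factor *tbx18*, by -1.58 ± 0.37 (SE) on the log2 scale (adjusted p-value 0.0494 in edgeR). That call was lost in 8 of 9 fits without 1 library, all but the one without control replicate 2. At an unadjusted p-value under 0.05 in edgeR, 2 of the 10 rows were lower, *tbx18* and *tcf21* (log2 fold change -1.55). In the other direction 1 row was higher, *wt1b* (1.52). The likelihood ratio test and DESeq2 each called 2 lower and 0 higher. The 7 bulbus and smooth muscle rows summed to 157.2 to 350.9 CPM and 157.9 to 295.9 CPM. Fitted changes were negative for 4 of these rows and positive for 3, with a median log2 fold change of -1.02. At an unadjusted p-value under 0.05 in edgeR, 4 were lower and 1 higher. Those lower included *elnb*, at means of 6.04 CPM in controls and 1.74 CPM in mutants, and *acta2* (122.7 and 54.8 CPM). The likelihood ratio test and DESeq2 each called 1 lower and 1 higher. *myh11* (ENSDARG00000009782, log2 fold change -1.38, edgeR adjusted p-value 0.0374) fell and *tagln* (ENSDARG00000045408, log2 fold change 1.41, edgeR adjusted p-value 0.0407) rose, each sharing its symbol with another row. The *myh11* call was lost in 6 of the 9 fits without 1 library (control replicates 3 and 5 and each mutant), and the *tagln* call in all 9. The part of these cells in the fall of *foxc1a* was not tested.

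**Figure D3:**
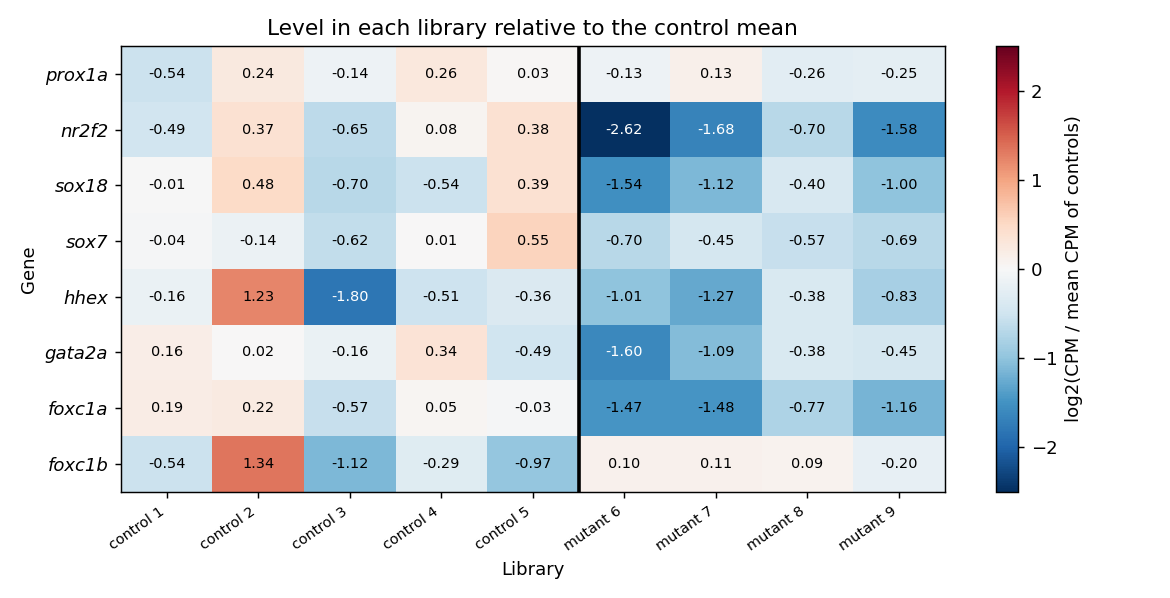
Level of each factor in each library relative to the mean of the 5 controls, as log2 of the ratio of CPM values, printed in each cell and coloured from blue (lower) to red (higher). The rows of *nr2f2*, *sox18*, *sox7*, *gata2a*, *foxc1a* and *hhex* are below 0 in all 4 mutant libraries, with *nr2f2* at -2.62 in replicate 6, while control replicate 2 is high for *hhex* and *foxc1b*. Some controls of each are below 0 too, for *hhex* control replicates 1, 3, 4 and 5.

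The levels were then set against endothelial RNA of the same library, as a description with no test. The 19 rows of the pan-endothelial list summed to 936.2 to 1673 CPM in controls and 1390 to 1650 CPM in mutants. The overlap came from control replicate 2 alone, which held the 1673 CPM: the other 4 controls reached 1319 CPM, below every mutant library. The sum had a mean of 1226 CPM in controls and 1495 CPM in mutants, but the 19 rows were split. Fitted changes were negative for 10 and positive for 9, with a median log2 fold change of -0.03. Among these rows *robo4*, a guidance receptor of endothelium, fell (log2 fold change -1.58, edgeR adjusted p-value 0.0380). *vwf*, which encodes von Willebrand factor, rose (1.23, edgeR adjusted p-value 0.0173), from a mean of 123.8 CPM in controls to 290.2 CPM in mutants. Ratios to the list without *vwf* were not taken. The *robo4* call was lost in 6 of 9 fits without 1 library (control replicates 3, 4 and 5 and mutant replicates 6, 8 and 9), and the *vwf* call without mutant replicate 9 (0.0505). Relative to the summed list, *nr2f2*, *sox18*, *sox7*, *gata2a* and *foxc1a* were lower in every mutant library than in any control, as were 9.16% of all genes, and no member was higher in this way, as were 2.12%. Without control replicate 2 the same 5 genes were lower without overlap, but so were 21.2% of all genes. With all libraries but without *kdrl*, the gene with the most counts in the list, this held for *nr2f2*, *sox18* and *foxc1a* (7.96% of all genes lower, and 1.85% higher, where no member was). Relative to *cdh5* and *tie1* alone, genes of endothelial junctions and of a vascular receptor whose sum was 266.4 ± 37.1 CPM (SD) over 5 controls and 286.8 ± 40.4 CPM (SD) over 4 mutants, *nr2f2* and *foxc1a* were lower without overlap, as were 3.93% of all genes. No member was higher without overlap, as were 3.75%. Their log2 ratios to this pair were lower in mutants by a mean log2 difference of -1.69 for *nr2f2* and -1.30 for *foxc1a*. The same ratio differed by -0.21 for *prox1a*, with overlap. This pair overlapped between genotypes also without control replicate 2 (245.6 to 313.3 CPM in controls, 231.3 to 328.1 CPM in mutants). The differences were then -1.51 for *nr2f2* and -1.16 for *foxc1a*, again without overlap, as were 4.95% of all genes. For *prox1a* the difference was then -0.06, with overlap.

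Other genes of the pathway were taken from lists of ligands, receptors, vessel genes and related factors. Of 9 rows for the Vegfc and Vegfr3 axis, 2 were called lower and 0 higher, *vegfd* and *flt4*. For *flt4* the mean with SD was 2.84 ± 0.934 CPM over 5 controls and 0.360 ± 0.279 CPM over 4 mutants (adjusted p-value 0.0181 in edgeR), a call lost without mutant replicate 6 or 7. The study, by in situ hybridization for *flt4*, detected blood vessels in hearts of both genotypes. *kdr* and *kdrl*, the other Vegf receptor genes of the list, had log2 fold changes of 0.05 and 0.21 and did not pass (edgeR adjusted p-values 0.925 and 0.502). Of 10 lymphatic vessel rows, the scavenger receptor gene *stab2* was called lower (log2 fold change -2.96, adjusted p-value 0.0200 in edgeR, lost without mutant replicate 8) and the mannose receptor gene *mrc1a* higher (3.65, edgeR adjusted p-value 0.00330). At an unadjusted p-value under 0.05 in edgeR, 2 rows were lower and 2 higher. These added *lyve1b*, lower and at a low level (means of 0.647 CPM in controls and 0.130 CPM in mutants), and *stab1*, higher (42.1 and 85.1 CPM). The likelihood ratio test and DESeq2 each called 1 lower and 2 higher. The median log2 fold changes were 0.02 for the axis and -0.14 for the lymphatic vessel rows. Both lists share rows with the pan-endothelial list, the axis *kdrl* and the lymphatic vessel rows *tie1* and *tek*. The lymphatic vessel list is thus not limited to genes particular to those vessels.

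Of the 6 venous rows, which include the ephrin receptor *ephb4a* and the apelin receptors, all 6 had negative fitted changes with a median of -0.25, but edgeR called 0 (1 lower at an unadjusted p-value under 0.05, and 1 lower by both the likelihood ratio test and DESeq2). The 1 lower row in edgeR was *aplnrb*, with a mean of 24.5 CPM in controls and 7.27 CPM in mutants (adjusted p-value 0.0502 in edgeR). The 6 venous rows summed to 89.1 to 146.1 CPM in controls and 68.8 to 77.7 CPM in mutants, without overlap. Of the 17 arterial and Notch rows, 13 were negative with a median log2 fold change of -0.49 and edgeR again called 0, with 7 lower and 1 higher at an unadjusted p-value under 0.05. The likelihood ratio test called 3 lower and 1 higher of these, and DESeq2 4 lower and 1 higher. The Notch receptor gene *notch3* had the smallest p-value of the list, with means of 28.4 and 15.3 CPM and an adjusted p-value of 0.0511 in edgeR. The 17 rows summed to 416.8 to 494.6 CPM in controls and 365.6 to 393.7 CPM in mutants, also without overlap. Neither sum was tested. Of 15 related fate factors, among them close relatives of the members, 8 were negative and edgeR called 0 (1 lower and 3 higher at an unadjusted p-value under 0.05, and 1 higher by both other tests). In edgeR those at an unadjusted p-value under 0.05 were *maf* (ENSDARG00000015890), at means of 1.82 CPM in controls and 0.521 CPM in mutants, and *mafk* (1.91 and 5.71 CPM). The others were *nfatc1*, which acts in valve endothelium in mouse (22.0 and 38.0 CPM), and *foxo1* (ENSDARG00000061549, 0.635 and 1.22 CPM). The name table does not assign this *foxo1* row to *foxo1a* or *foxo1b*. *maf* and *foxo1* each share a symbol with another row at a higher level that was not among them. These rows were ENSDARG00000076520 (18.9 and 10.6 CPM, edgeR adjusted p-value 0.668) and ENSDARG00000099555 (42.5 and 45.3 CPM, edgeR adjusted p-value 0.929). Of 11 rows of general endothelial factors, such as *fli1a*, *erg* and *tal1*, 5 were negative. The 1 row called by edgeR was *klf4*, a flow-responsive zinc finger factor, which rose by 3.44 ± 0.60 (SE) on the log2 scale (adjusted p-value 0.0186 in edgeR). At an unadjusted p-value under 0.05 in edgeR, 1 row was lower and 3 were higher. The likelihood ratio test called 0 lower and 1 higher, and DESeq2 0 lower and 3 higher. No set test was run on these lists.

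None of the rows of the remaining marker lists was called by edgeR. The 6 lymphocyte rows summed to 8.18 to 41.1 CPM in controls and 3.33 to 7.28 CPM in mutants, without overlap, and 4 were lower and 0 higher at an unadjusted p-value under 0.05 (1 lower by the likelihood ratio test and 2 by DESeq2). They were highest in control replicate 3, which was the lowest control for *nr2f2*, *sox18*, *sox7*, *hhex*, *foxc1a* and *foxc1b*. Control replicate 3 also held the highest macrophage sum of the controls (1307 CPM) and the lowest erythrocyte and thrombocyte sums (730.0 and 10.8 CPM). The part of lymphocytes or of these other cells in the fate factor levels was not tested. Without control replicate 3 the log2 fold changes of *nr2f2* and *foxc1a* were -1.61 and -1.30. The 16 macrophage rows summed to 413.9 to 1307 CPM in controls and 473.2 to 1251 CPM in mutants, with 0 lower and 2 higher at an unadjusted p-value under 0.05 and likewise by the likelihood ratio test and DESeq2. The 5 erythrocyte rows (730.0 to 2577 CPM in controls, 759.1 to 2983 CPM in mutants), the 3 thrombocyte rows (10.8 to 34.1 and 11.998 to 21.6 CPM) and the 3 atrial rows (894.2 to 2395 and 1388 to 2321 CPM) overlapped between genotypes. At an unadjusted p-value under 0.05 these held 1 thrombocyte row lower and 1 atrial row higher, the latter also called by DESeq2. The 1 neutrophil row, *lyz*, had a mean of 0.392 CPM in controls and 0.618 CPM in mutants.

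**Figure D4:**
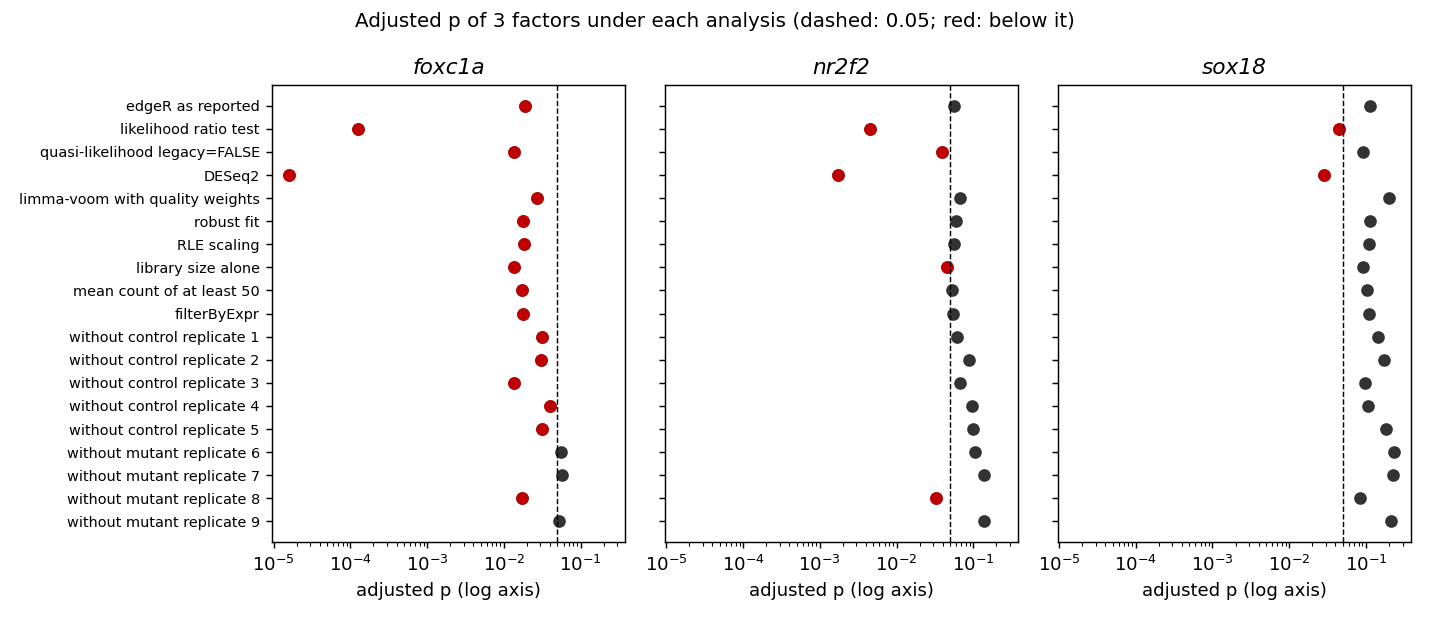
Adjusted p-value of *foxc1a*, *nr2f2* and *sox18* on a log axis under each analysis, from the reported edgeR fit through other tests, scalings and filters to fits that each leave out 1 library. The dashed line is 0.05 and red points lie below it. *foxc1a* lies above the line only without mutant replicate 6, 7 or 9, *nr2f2* runs from 0.00173 by DESeq2 to 0.139 without mutant replicate 7, and *sox18* is below it under the likelihood ratio test and DESeq2.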

How the data were processed

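The authors trimmed paired reads with Skewer, aligned them to GRCz11 with STAR 2.5.2a and used featureCounts 1.5.0 for strand-aware counting over Ensembl genes at a mapping quality of at least 20. The deposited values are raw counts per gene, unnormalized, for genes with a mean of at least 10 reads per library, so genes under that limit were not analysed here.

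Rows were named from a table of gene symbols (15812 of 16575 matched). Genotypes were compared with edgeR 4.0.16 in R 4.3.3 (quasi-likelihood F test, legacy=TRUE, TMM scaling, two-sided, no covariate), with Benjamini-Hochberg adjustment over all genes and a threshold of 0.05. Standard errors are the log2 fold change over the square root of F. Intervals of 95% use the t quantile of the fit. Alternatives were the likelihood ratio test, legacy=FALSE, DESeq2 1.42.0, limma 3.58.1 (voom with quality weights), a robust fit, 2 scalings, 2 filters, other thresholds and leaving out each library. The procedure was tested on simulated data.

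Members and lists were chosen with earlier results of these data known. All 10 genes chosen had a row, and 2 of them are not reported here. List symbols missing from the name table were looked up without a final a or b, and rows of members were left out of other lists. Genes were named if members, if *vegfc*, *vegfd* or *flt4*, or as up to 3 called genes of smallest p-value per list, or as the 3 genes most like *prox1a*, *nr2f2* or *sox18*. Any other gene is named as an example of its list, after its values were seen.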

Additional observations from a re-analysis of the deposited data

Results flagged for a closer look

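Of 22 groups of libraries compared for 1 value far from the others (the 8 factors, *vegfc*, *vegfd* and *flt4* in each genotype), 2 held such a value, and about 1.1 would by chance. Control replicate 2 stood far above the other controls for *foxc1b*, at 29.6 CPM against 5.40 to 9.56 CPM. Mutant replicate 9 was low among mutants for the same gene, at 10.2 CPM against 12.5 to 12.6 CPM.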

How the results depend on the processing

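Among the 8 genes described, 0 were called higher under every alternative. The number called lower was 1 as reported, 3 by the likelihood ratio test and by DESeq2 (*foxc1a*, *nr2f2* and *sox18*), 2 with legacy=FALSE, with library size scaling and at a threshold of 0.1 (*foxc1a* and *nr2f2*), 0 at a threshold of 0.01, and 0 to 2 with a library left out. Over all genes, 353 were higher and 200 lower as reported, against 817 and 540 by the likelihood ratio test, 553 and 304 with legacy=FALSE, 929 and 737 by DESeq2, 68 and 19 at a threshold of 0.01, 723 and 507 at a threshold of 0.1, and 136 to 322 higher and 60 to 170 lower with a library left out. Scaling by relative log expression, both filters, the robust fit and limma-voom stayed within 1.5 times of each of these counts. Counts over all genes with library size scaling are not given, so its 2 calls stand without a share of all genes. *foxc1b* changed sign in 4 of the 9 fits with a library left out, those without control replicate 1, 3, 4 or 5, and ranged from -0.15 to 0.72, with no call. The 7 others kept their direction under every alternative that gave a value. *hhex* has a mean under 50 counts and gave none under that filter. Ratios to endothelial RNA without the gene with the most counts, *kdrl*, left 3 of the genes without overlap (*nr2f2*, *sox18* and *foxc1a*), as were 7.96% of all genes. No paired analysis was possible because the genotypes share no replicate number. The causes were not tested.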

Other observations

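The genes whose levels followed 3 of the factors most closely were sought among 13873 other genes with a mean of at least 1 CPM, by the correlation of log2(CPM + 1) after the genotype mean was taken from each of the 9 libraries. For *prox1a* they were *spen* (Pearson's r 0.966, Spearman's rho 0.950), si:dkey-12h9.6 (r 0.964, rho 0.933) and *rfx7* (r 0.958, rho 0.900). For *nr2f2* they were *apex2* (r 0.975, rho 0.967), *ppp1r3c* (r 0.973, rho 0.950) and *atp23* (r 0.972, rho 0.983). For *sox18* they were *tmed5* (r 0.967, rho 0.900), *dcaf7* (r 0.966, rho 0.917) and *ciapin1* (r 0.957, rho 0.917). These values are a description: all points share their libraries and scaling, and the highest of 13873 correlations over 9 libraries is high by selection.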
